A study of Mus musculus with 16 samples.

Results

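m6A regions shared by both Sham cortex libraries are described here: stretches of exon on which the m6A peak lists of the 2 sham-operated libraries each held a peak, with at least 1 exonic base in common on the same strand. The 2 lists held 18775 and 20152 peaks, which joined into 27761 regions, and 9002 of these (32.4%) held a peak of both lists. Joined over all 8 immunoprecipitated libraries of the series, the peaks gave 52463 regions. The other 18759 Sham regions, 8653 in replicate 1 only and 10106 in replicate 2 only, serve below as the comparison.

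The libraries came from the cerebral cortex of male C57BL/6J mice aged 6 to 8 weeks at surgery, and the study's methods give 6 mice per group without stating which mice entered which library. The Sham mice had the surgery without insertion of the filament. In the MCAO/R mice the middle cerebral artery was occluded with a filament for 2 h and the tissue was taken after reperfusion of 0 h, 6 h or 24 h, again with 2 libraries each, and the tissue taken in every group, Sham included, is called peri-infarct cortex. Fragmented RNA was pulled down with an antibody against m6A and sequenced (MeRIP-seq). Since the lists give peaks and no read counts, depth was unknown, and without the input libraries, which were left out here, a gene without a region cannot be told apart from a gene with little RNA.

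N6-methyladenosine is the most abundant internal modification of messenger RNA. It is deposited in the nucleus by a complex built around METTL3 and METTL14, mostly at adenosines in a short consensus, and is read by proteins with a YTH domain that act on splicing, stability and translation. Messenger RNAs of the brain carry it in long exons and around the stop codon, and neurons use it in transcripts that serve axon growth and synapses. The consensus, called RRACH, is A or G, then A or G again, then the methylated A, then C, then A, C or T, and GGACT is its best known form.

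Because the sequence under a peak is what the antibody enriched, the coding stretches common to both lists are printed for 5 high-scoring regions, with each RRACH word on the transcribed strand in capitals (neighbouring words may overlap). Each peak carries a score of unstated scale, used only as a percentile within its list, and regions were ranked by the lower of their 2 percentiles. None of the 10 highest had a coding common stretch of at most 300 nt within 1 exon, so 5 from further down the ranking are shown. They come from genes of a heat shock protein co-chaperone (Dnajb4), a zinc finger protein (Zfp445), a protein kinase A anchor (Akap11), the phosphatase that activates pyruvate dehydrogenase (Pdp1) and a factor that joins ribosomal subunits (Eif5b).
Dnajb4: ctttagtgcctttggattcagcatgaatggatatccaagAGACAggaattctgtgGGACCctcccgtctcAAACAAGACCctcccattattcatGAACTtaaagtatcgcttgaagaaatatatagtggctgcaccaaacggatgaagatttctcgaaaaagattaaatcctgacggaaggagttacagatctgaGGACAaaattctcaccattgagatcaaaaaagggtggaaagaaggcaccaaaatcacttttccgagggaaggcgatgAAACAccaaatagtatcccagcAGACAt
Zfp445: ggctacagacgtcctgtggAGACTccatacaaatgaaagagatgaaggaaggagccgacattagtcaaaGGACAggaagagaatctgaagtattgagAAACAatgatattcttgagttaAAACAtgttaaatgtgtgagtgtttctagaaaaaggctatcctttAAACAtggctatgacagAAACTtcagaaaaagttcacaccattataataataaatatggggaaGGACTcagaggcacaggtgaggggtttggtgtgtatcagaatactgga
Akap11: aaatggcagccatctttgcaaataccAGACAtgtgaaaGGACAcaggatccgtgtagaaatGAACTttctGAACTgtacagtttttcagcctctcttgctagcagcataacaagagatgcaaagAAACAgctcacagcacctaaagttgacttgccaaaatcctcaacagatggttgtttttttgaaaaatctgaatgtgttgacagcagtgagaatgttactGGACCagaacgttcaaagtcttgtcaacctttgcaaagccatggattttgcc
Pdp1: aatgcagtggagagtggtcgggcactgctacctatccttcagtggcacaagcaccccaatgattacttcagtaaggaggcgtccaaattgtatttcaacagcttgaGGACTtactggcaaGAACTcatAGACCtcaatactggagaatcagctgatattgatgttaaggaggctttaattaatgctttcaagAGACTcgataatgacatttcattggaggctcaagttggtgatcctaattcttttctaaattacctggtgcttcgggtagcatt
Eif5b: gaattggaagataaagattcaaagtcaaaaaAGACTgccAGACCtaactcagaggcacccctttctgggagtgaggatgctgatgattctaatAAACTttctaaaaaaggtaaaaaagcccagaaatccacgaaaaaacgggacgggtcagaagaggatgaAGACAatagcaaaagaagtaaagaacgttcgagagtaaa

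On GRCm39 the Dnajb4 stretch is chr3:151892140-151892439 on the minus strand, in exon 5 of 6 (569 nt, internal), and its score percentiles were 99.4 and 99.1 in the 2 Sham lists. The Zfp445 stretch, chr9:122682632-122682906 on the minus strand, lies in the 5079-nt last exon, the Akap11 stretch, chr14:78747870-78748144 on the minus strand, in an internal exon of 4441 nt, the Pdp1 stretch, chr4:11961384-11961658 on the minus strand, in the 4522-nt last exon and the Eif5b stretch, chr1:38058045-38058244 on the plus strand, in an internal exon of 670 nt. Each of these 5 lies in an exon longer than 400 nt. Each region was listed in all 6 MCAO/R lists, against 53.1% of all shared regions. GGACT occurs in 2 of them, those of Zfp445 and Pdp1, while RRACH words number 8, 7, 6, 4 and 4 in the order printed.

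The shared regions held 53.9% of the peaks of Sham replicate 1 and 49.9% of those of replicate 2. A typical shared region covered 250 nt of exon (median, 5th to 95th percentile 75 to 750 nt), of which a median of 125 nt, or 60%, lay under peaks of both lists. The middles of the peaks of the 2 lists were a median of 37 nt apart. In 671 regions (7.45%) the exonic part was identical in both lists, in 7330 (81.4%) each list held exactly 1 peak, and 1748 (19.4%) crossed an exon junction. Regions in 1 list only were shorter, with a median of 75 nt. The part of a shared region under 1 list had a median of 199 nt in replicate 1 and 200 nt in replicate 2. A region joined from several peaks can only grow, and the share of this in the difference was not tested.

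Agreement between the Sham libraries rose with the score. Of the 10% of peaks with the lowest scores, 23.4% in replicate 1 and 11.3% in replicate 2 lay in a shared region, against 87.0% and 96.0% of the 10% with the highest. Across the 9002 shared regions the scores of both lists had a Spearman correlation of 0.734 (given as a description, since regions share libraries and genes and are not independent), and 1199 regions (13.3%) were in the top 10% of both lists. At the edge of the rule, 438 shared regions (4.87%) had 25 or fewer exonic bases in common, down to 2, with a median lower percentile of 25.1 against 62.3 for the others. Just outside it, 327 pairs of regions from opposite lists touched without sharing a base and 644 lay within 50 nt of each other.

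Shared regions were found in 4562 of 21474 coding genes (21.2%), or 4950 genes of any kind. These coding genes held 8491 of them (94.3%), long non-coding RNA genes 423 (4.70%). Of the marked coding genes, 2562 (56.2%) had 1 region, 1066 had 2 and 233 had 5 or more, which is 1.09% of all coding genes, and the mean was 1.86. Neighbouring regions of a gene were a median of 712 nt of spliced exon apart (25th to 75th percentile 434 to 1222 nt).

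Marked genes were long. A shared region was present in 4.28% of the coding genes with under 2 kb of exon, 15.5% of those with 2 to 4 kb, 35.3% with 4 to 8 kb and 55.5% with 8 kb or more. Per kb of exon the density also rose across these classes, from 0.0398 to 0.0752, 0.118 and 0.140 regions per kb. Within marked genes it fell instead, from 0.763 to 0.250 regions per kb, since a short gene needs a high density to have 1 region at all. The median exon length was 3.16 kb over all coding genes, 5.16 kb in marked genes and 9.09 kb in genes with 5 or more regions. The relation between exon length and number of regions among marked genes was weak, with a Spearman correlation of 0.324 over 4562 genes, a description only.

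**Figure D1:**
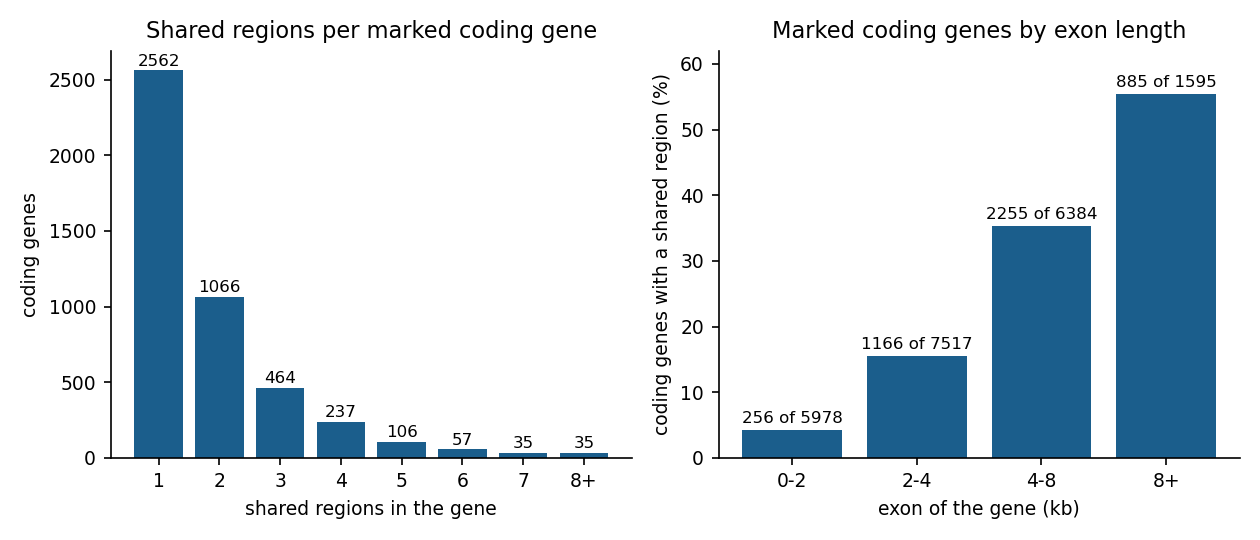
Left, number of coding genes (y axis) by the number of m6A regions shared by both Sham lists (x axis), with 2562 genes at 1 region and 35 at 8 or more. Right, percent of coding genes with at least 1 shared region (y axis) by exon length in kb (x axis), with gene counts over the bars, rising from 4.28% under 2 kb to 55.5% at 8 kb or more.

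The genes with the most shared regions encode giant scaffolds, adhesion proteins and chromatin enzymes. Fat3, an atypical cadherin that shapes neuronal dendrites, had 15 regions in 18760 nt of exon, from 22 peaks in Sham replicate 1 and 24 in replicate 2, and 11 of them lay in internal exons of at least 400 nt. Both lists thus gave Fat3 near-equal peak numbers.

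Akap9, a kinase anchor of the centrosome and Golgi, had 14 regions, all coding, and Cep350, a centrosomal protein, had 13. Ahnak, a very large scaffold protein, had 13 regions, all in its last exon, but with a median lower score percentile of 39.8, the lowest of the genes named here for their number of regions. Apc, a brake on Wnt signalling, had 12 with a median of 91.9. Syne1, a nuclear envelope spectrin-repeat protein, had 12 in 30981 nt of exon, and Macf1, a linker of microtubules and actin, had 11. Pclo, a scaffold of the presynaptic active zone, had 11 and Ash1l, a histone methyltransferase, had 10, in both cases 9 of them in long internal exons. Counts of 10 were also reached by Bod1l, Kmt2a, Nsd1, Setd2, Spen and Zfp462.

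Not all of these regions were listed in every MCAO/R list. In Fat3 9 of 15 were listed in all 6, in Akap9 5 of 14 and in Syne1 4 of 12, against 53.1% of all shared regions. Read per length, the leading genes had 0.290 to 0.787 regions per kb over the exons of all their transcripts.

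Among coding genes with at least 3 regions and 1 kb of exon, the 10 densest were chosen by regions per kb of the exons of their coding transcripts, and their densities are given over the exons of all transcripts unless stated otherwise. AI837181 had 3 regions in 1662 nt of exon (1.81 per kb), Inafm2 5 in 3053 nt (1.64 per kb), Topors, a ubiquitin and SUMO ligase, 6 in 3856 nt (1.56 per kb), Mfsd5, a membrane transporter, 4 (1.51 per kb) and Xkr4, an XK-related membrane protein, 7 (1.09 per kb, against 1.77 per kb of its coding transcripts). Over the exons of all transcripts some genes outside these 10 were denser than Xkr4, such as the protocadherin Pcdhb20 with 1.40 per kb. All 6 regions of Topors lay in the coding part of its last exon. Over the exons of coding transcripts only, the density was 0.104 regions per kb in all coding genes and 0.321 in those with a region. By that measure Mfsd5 had 1.75 per kb, while AI837181, Inafm2 and Topors kept the values above. One exon of Mfsd5 overlaps a second annotated gene on the same strand, Gm9918, so that its regions could be divided otherwise.

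The density of the other 5 genes also changed with the exons counted. Tug1, a nuclear transcript best known as a long non-coding RNA but annotated here as coding, had 7 regions, which came to 4.34 per kb of the exons of its coding transcripts but 0.719 per kb over the exons of all its transcripts, where they lie, and 4 further annotated genes overlap it on the same strand. Lrrtm1, a synaptic organiser, had 0.983 regions per kb over all transcripts, Ache, which breaks down acetylcholine, 0.766, Hyls1, a centriolar protein, 0.525 and Tlcd3a 0.455. One of 4 regions in Ache and in Mfsd5, and 1 of 3 in AI837181, was listed in all 6 MCAO/R lists. It was 6 of 7 in both Tug1 and Xkr4, and 53.1% over all shared regions. The genes also differed in median lower score percentile, at 33.8, 43.8 and 50.8 in the first 3 and 88.8 and 82.7 in Tug1 and Xkr4.

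Long non-coding RNA genes were rarely marked, 323 of 32884 (0.982%). A830036E02Rik, B230354K17Rik and Kcnq1ot1, the transcript that silences an imprinted cluster, had 4 regions each, and 2610507I01Rik and Dlx1as were the first by name of several with 3. Strand use in peak calling is not given in the sources used here, so the RNA of antisense transcripts such as Dlx1as and Kcnq1ot1 cannot be told apart from that of the genes opposite. Kcnq1ot1 spans 93852 nt of exon, so its 4 regions amount to 0.0426 per kb, whereas A830036E02Rik had 0.631 per kb.

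Shared regions gathered around the stop codon. Of the 7997 regions that could be placed on the reference transcript of a coding gene (the one with the longest coding sequence), 23.8% had their centre within 200 nt of the stop codon, where even placement along the same transcripts gives 8.56%, a ratio of 2.78. Centred on the peaks of either list alone, the same regions gave 23.8% and 24.0%. Regions in 1 list only were less concentrated, at 17.3% against 9.33% (ratio 1.85), and those of replicate 1 and replicate 2 gave 17.2% and 17.3%. With 2 lists, no test over libraries can be made on the gap between the 2 kinds of region. They also differ in median length (250 and 75 nt) and median lower percentile (60.7 and 32.1).

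**Figure D2:**
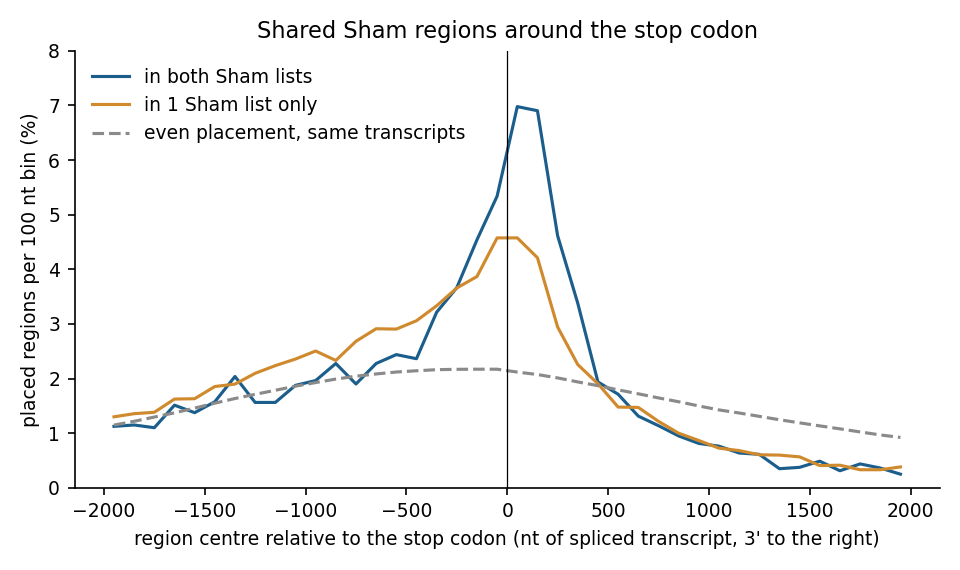
Percent of placed regions per 100-nt bin (y axis) by the position of the region centre relative to the stop codon in nt of spliced transcript (x axis), for regions in both Sham lists, regions in 1 list only and even placement on the transcripts of the shared regions. Shared regions reach 6.98% and 6.90% per bin in the 200 nt after the stop codon, where even placement gives 2.12% and 2.07%.

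By transcript part, 58.9% of the placed shared regions were coding (47.0% under even placement), 37.5% in the 3' UTR (44.6%) and 3.63% in the 5' UTR (8.44%). The 3' UTR thus held fewer than its length would give, with its regions close to the stop codon: between 700 and 800 nt after it the bin held 1.14% of regions against 1.65% under even placement. A region near the stop codon was present in 1847 of 4373 genes with a placed region (42.2%).

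The position changed with the number of regions in the gene. In genes with 1 shared region, 36.6% of placed regions were near the stop codon (11.3% under even placement), falling to 27.1% (9.12%) with 2, 16.7% (7.34%) with 3 or 4 and 7.89% (4.87%) with 5 or more. This is a share of regions, and the reference transcript has only 1 stop codon. Counted per gene, the share with a region near the stop codon did not fall in this way. It was 36.6% with 1 region, 49.9% with 2, 49.4% with 3 or 4 and 44.2% with 5 or more. Long internal exons took the opposite course, from 12.8% of regions to 15.6%, 25.1% and 39.3%, against 5.35%, 6.52%, 12.1% and 23.0% under even placement. Genes with 5 or more regions therefore held more of them in long internal exons, while the ratio to even placement was lower there for both positions than in genes with 1 region.

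Among internal exons, length separated marked from unmarked ones. In genes with a shared region, 0.981% of 12439 internal exons under 100 nt held one, 1.73% of those of 100 to 200 nt and 4.74% of those of 200 to 400 nt. The share then rose to 44.0% of 1072 exons of 400 to 800 nt, 73.0% of 592 exons of 800 to 1600 nt and 84.3% of 300 exons of 1600 nt or more. Length alone offers more room, but per kb the density also rose, from 0.133, 0.122 and 0.200 regions per kb in the 3 shorter classes to 0.868, 0.920 and 0.714 in the 3 longer ones. In the 3239 genes with a shared region in the last exon, which are chosen without regard to the internal exons, the shares were 0.492%, 1.25%, 3.24%, 34.7%, 63.6% and 74.1%.

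Altogether 21.4% of placed shared regions lay in internal exons of at least 400 nt, against 10.5% under even placement, and 9.83% in shorter internal exons, against 21.6%. Regions in 1 list only differed most in the short exons, where 26.0% of them lay (26.5% under even placement). Only 15.9% of the Sham regions in coding short internal exons were present in both lists, compared with 40.8% in long internal exons and 41.3% around the stop codon.

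**Figure D3:**
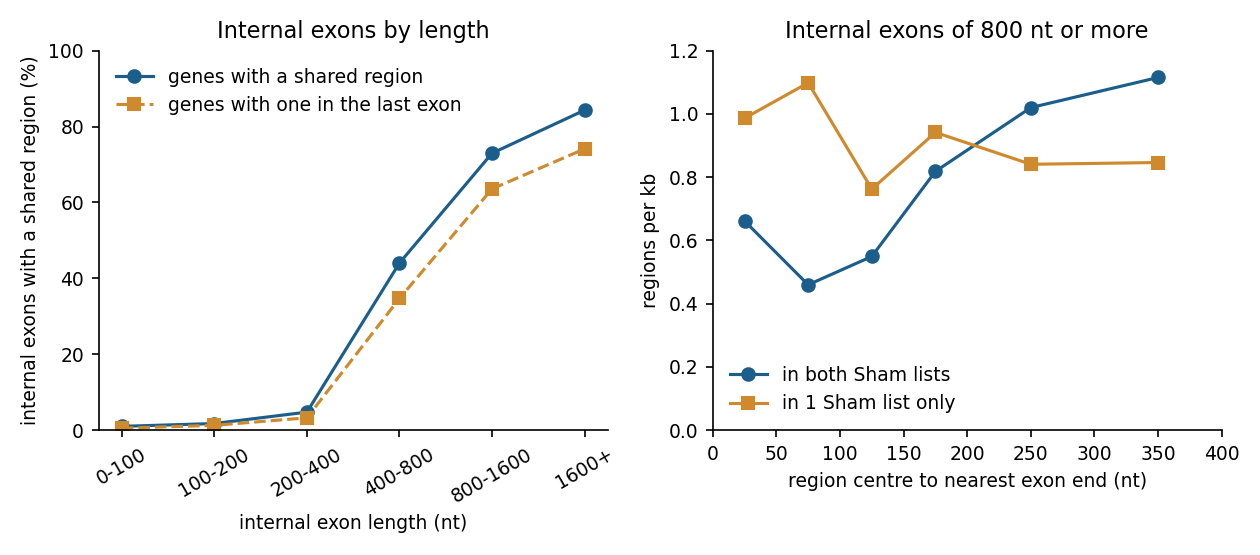
Left, percent of internal exons with a region shared by both Sham lists (y axis) by exon length in nt (x axis), in all genes with a shared region and in those with one in the last exon, rising from 4.74% at 200 to 400 nt to 44.0% at 400 to 800 nt in the former. Right, regions per kb (y axis) by the distance in nt from the region centre to the nearest end of internal exons of at least 800 nt (x axis), where shared regions fall to 0.460 per kb at 50 to 100 nt and reach 1.12 per kb at 300 to 400 nt.

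Within internal exons of at least 800 nt, shared regions were sparser next to the exon ends. Their density was 0.661 regions per kb within 50 nt of an end, 0.460 at 50 to 100 nt, 0.549 at 100 to 150 nt, 0.818 at 150 to 200 nt, 1.02 at 200 to 300 nt and 1.12 at 300 to 400 nt. Centring on the peaks of 1 list at a time gave 0.527 and 0.538 at 50 to 100 nt and 1.11 and 1.01 at 300 to 400 nt. Regions in 1 list only, which are shorter (median 75 nt), had 1.10 per kb at 50 to 100 nt, a lowest value of 0.762 at 100 to 150 nt and 0.846 at 300 to 400 nt. Over all exons, 19.8% of regions in 1 list only and 19.4% of shared regions crossed a junction. The part of region length in these profiles was not tested. These counts are small, from 41 to 199 shared regions per class, and a region of 250 nt cannot have its centre close to an end without crossing the junction.

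GGACT was denser in shared regions than around them. On the transcribed strand it occurred 1.55 times per kb in shared regions, 1.61 times per kb in their part common to both lists and 0.951 times per kb in the remaining exons of the same genes, a ratio of 1.63 for the whole regions. RRACH occurred 19.0 times per kb in shared regions, 1.36 times its rate in the remaining exons. Regions in 1 list only had 1.41 GGACT and 16.4 RRACH per kb.

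At matched length the difference between the kinds of region was small: 33.2% of shared regions of 200 to 300 nt held GGACT, against 31.5% of regions of that length in 1 list only and 19.4% of 250-nt windows in the remaining exons. By score, GGACT density fell and the share of regions holding GGACT rose. The density was 1.65 per kb in shared regions with a lower percentile under 25 and 1.47 per kb in those of 75 or more, while RRACH density was 18.3 and 19.7 per kb. The share of regions with GGACT was 24.9% and 44.5% in the same 2 classes, which were not matched for length. Of all shared regions, 35.2% held GGACT and 95.1% an RRACH word.

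**Figure D4:**
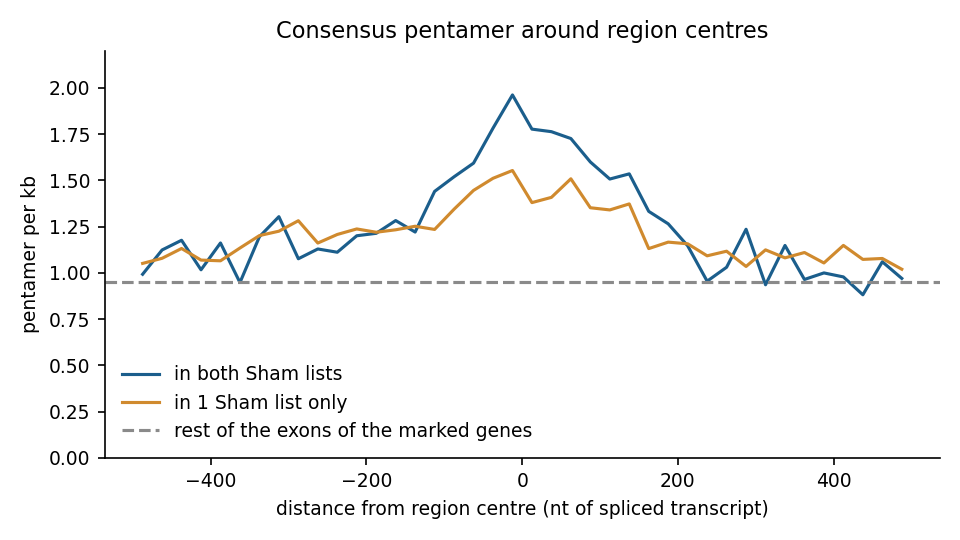
GGACT per kb (y axis) by distance from the region centre in nt of spliced transcript (x axis), for regions in both Sham lists and in 1 list only, with the rate in the remaining exons of the marked genes (0.951 per kb) as a dashed line. The rate in shared regions peaks at 1.96 per kb in the 25 nt before the centre and is 0.992 per kb at the left edge of the plot.

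The regions with the highest scores were mostly long and mostly in last exons. Last exons held 60.6% of all placed shared regions (54.1% under even placement). First came Slitrk4, a synaptic adhesion protein, with a region of 2775 nt at chrX:63313666-63316440 on the minus strand, in the coding part of the last of 3 exons, at percentiles of 99.99 in both Sham lists. It was followed by 2 regions of Zhx1, a transcriptional repressor, one of 275 nt at chr15:57911899-57912173 in the 3' UTR, 151 nt after the stop codon, and one of 75 nt that does not lie on the reference transcript. Both had the same extent in each list.

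Next were the single-exon gene Epm2aip1 (1200 nt), Lrrc4c, a netrin-G ligand of synapses (775 nt), Nlgn1, the postsynaptic neuroligin (975 nt, centred 213 nt after the stop codon), Megf9 (1050 nt), the GTPase-activating gene Arhgap5 (1050 nt), the cadherin Cdh12 (750 nt) and the ubiquitin ligase Rnf103 (1325 nt). Arhgap5 was the only one of the 9 placed regions in an internal exon, its second, of 3861 nt. All 10 regions were listed in all 6 MCAO/R lists, against 53.1% of all shared regions. Of the 10, 7 held GGACT, against 35.2% of all shared regions, whose median length was only 250 nt. Epm2aip1 held 5 GGACT words, and none was found in the regions of Zhx1 or Nlgn1.

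The longest shared regions were Gm56492 (3420 nt), Haus3 (3123 nt), Slitrk4 (2775 nt), Gm57224 (2662 nt) and Peli1 (2300 nt). Peak lengths in the files run in steps of 25 nt, and the rebuilt lengths of Gm56492, Haus3 and Gm57224 are no such step, so the exons under those 3 are uncertain. Haus3 was listed in 2 of the 6 MCAO/R lists. Only 156 shared regions (1.73%) exceeded 1000 nt.

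By function, the marked share differed widely between gene lists, all of which were written with earlier results of these data known. Over all coding genes it was 21.2%, with a median of 0 regions per gene and a median exon length of 3.16 kb, and the shares by exon length given above (15.5% at 2 to 4 kb, 35.3% at 4 to 8 kb and 55.5% at 8 kb or more) apply to each list by its own length. Cell adhesion and synaptic organiser genes had a region in 35 of 46 (76.1%, median of 3 regions, median exon 8.57 kb), led by Fat3 with 15, Fat1, an atypical cadherin, with 8, the teneurin Tenm4 with 7 and the neuroligin Nlgn3, Slitrk1 and Tenm3 with 6. Without a region were Adgrl1, Cdh2, Celsr1, Cntn3, Cntn4, Cntnap1, Fat2, L1cam, Ncam1, Ncam2 and Nrxn2.

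Chromatin regulators had a region in 52 of 69 (75.4%, median 2, median exon 8.57 kb), led by the histone methyltransferases Ash1l, Kmt2a, Nsd1 and Setd2 with 10 each. Protocadherins, neuronal adhesion proteins whose extracellular part is often encoded by 1 large exon, had one in 51 of 69 (73.9%, median exon 4.84 kb), with 6 in Pcdh17, 5 in Pcdh9 and Pcdhb20 and 4 in Pcdha5, Pcdhb22 and Pcdhb9. The clustered protocadherins are close in sequence, and those of the alpha and gamma clusters (not Pcdhb) share their last exons, so reads can be divided between them. Zfp zinc finger genes had one in 193 of 383 (50.4%, median exon 4.17 kb), led by Zfp462 with 10, Zfp318 and Zfp644 with 8 and Zfp407, Zfp451 and Zfp646 with 6.

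Voltage-gated ion channels had a region in 33 of 46 (71.7%, median 2, median exon 7.60 kb). Kcnd3, an A-type channel, had 6, and the potassium channels Kcna2, Kcna4, Kcna6, Kcnd2 and Kcnq5 had 4. Of the 6 regions of Kcnd3, 4 lay in the 3' UTR of its 4995-nt last exon, with centres 221 to 2771 nt after the stop codon, and 4 of the 6 were listed in all 6 MCAO/R lists.

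Glutamate receptor and postsynaptic scaffold genes had one in 24 of 39 (61.5%, median exon 6.46 kb), with 5 in the kainate receptor Grik3, and 4 in Grin3a and Grm8. Axon guidance genes had one in 30 of 49 (61.2%, median exon 6.49 kb), led by the semaphorin co-receptor Plxna4 with 6, then the ephrin receptor Epha5 and Plxna2 with 4. Efnb2 was among 5 genes with 3. Presynaptic genes, with a median exon of 5.06 kb, had one in 11 of 38 (28.9%), near the 35.3% of all coding genes with 4 to 8 kb, and the active zone genes Pclo, Rims2, Unc13c and Erc1 had 11, 7, 6 and 5. Per kb of exon, presynaptic and postsynaptic lists were close, at 0.158 and 0.169 regions per kb, against 0.331 in the adhesion list.

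Immediate early and activity-regulated genes had one in 18 of 31 (58.1%, median 1, median exon 3.06 kb), led by Dusp5 and Homer1 with 3 and by Egr2 and Jun with 2. Among the 13 without a region were Arc, Egr1, Fos and Junb. In Homer1, which anchors metabotropic receptors and has a short activity-induced form, 2 of the 3 regions were off the reference transcript and the third was centred 27 nt after its stop codon. Heat shock and folding genes had one in 10 of 32 (31.2%, median exon 3.56 kb), with 2 each in Hspa12a, Hspa13 and Hspa1a and 1 in Bag3.

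Housekeeping lists had few or none. No glycolysis gene of 17 had a shared region, and 2 had a peak in either Sham list, one of them Gapdh with 1 peak in replicate 2. Ribosomal protein genes had one in 3 of 83 (3.61%, among them Rps4l and Rps6 with 1 each), respiratory chain subunits in 1 of 75 (1.33%: Ndufa9) and proteasome subunits in 3 of 39 (7.69%: Psma4, Psmd5 and Psmd7). These genes are also short, with median exon lengths of 1.21 kb for ribosomal proteins, 1.30 kb for respiratory chain and 1.84 kb for proteasome subunits, and the marked share over all coding genes with under 2 kb of exon was 4.28%. Glycolysis genes, at a median of 2.79 kb, fall in the class where 15.5% were marked. Olfactory receptors, which cortex is not known to use, had none in 1138, and 4 had a peak in either list.

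The genes that write and read m6A were themselves marked in 12 of 25 (48.0%), at a median exon of 6.05 kb, a class in which 35.3% of all coding genes were marked. In the writer complex Zc3h13, its nuclear zinc finger subunit, had 6 regions (10 peaks in Sham replicate 1 and 7 in replicate 2), Rbm15b and Virma 4 each, Wtap 3, Cbll1 and Rbm15 2 each, and the separate methyltransferase gene Mettl16 had 1. The catalytic pair had none: Mettl3 had 0 and 1 peaks in the 2 lists, and Mettl14 had 0 and 4, all from replicate 2.

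Of the readers, Ythdc1, Ythdf1 and Ythdf3 had 3, Ythdf2 had 2 and Prrc2a had 1. The 3 regions of Ythdf1, which promotes translation, all lay in exon 5 of 6, an internal coding exon of 1521 nt, with score percentiles between 51.9 and 78.3, and 1 of them was listed in all 6 MCAO/R lists and 2 in 5. The erasers Fto and Alkbh5 had no shared region, with no peak in Fto and 3 and 1 peaks in Alkbh5 that did not meet. None was found for Fmr1, Hnrnpa2b1, Hnrnpc, Igf2bp1, Igf2bp2, Igf2bp3, Mettl5, Ythdc2 or Zcchc4.

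Cell type markers of the cortex were unevenly represented, and a peak is no measure of RNA level. None of 10 neuronal markers (Camk2a, Gad1, Gad2, Map2, Nefl, Rbfox3, Slc17a7, Snap25, Stmn2 and Syt1) had a shared region and 4 had a peak in either Sham list. Astrocyte markers had one in 4 of 8 (Aqp4 with 5, Sox9 with 3, Gja1 with 2 and Slc1a2 with 1), oligodendrocyte markers in 3 of 9 (Olig1 and Olig2 with 2, Sox10 with 1), microglial markers in 3 of 10 (P2ry12 with 2, Csf1r and Cx3cr1 with 1) and endothelial markers in 1 of 7 (Cldn5). Blood markers had one in 2 of 5 (Alas2 and Hba-a1), and markers of choroid plexus, liver and muscle had none in 4, 5 and 5, with a peak in either Sham list for 0, 0 and 1. Median exon lengths were 5.12 kb for neuronal, 4.4 kb for astrocyte, 4.37 kb for endothelial, 4.93 kb for choroid plexus and 4.06 kb for muscle markers. Of all coding genes with 4 to 8 kb of exon, 35.3% were marked. The medians were 2.66 kb for oligodendrocyte and 2.72 kb for microglial markers (15.5% at 2 to 4 kb). Liver and blood markers had 1.88 and 0.704 kb (4.28% under 2 kb). The lists are short and were not compared by a test. These counts do not check the tissue label.

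The MCAO/R lists were not used to choose the regions. Regions found in both Sham lists were chosen for being called, however, and those of 1 list for having been missed once, so the direction of their difference follows from the choice and is given with no test. Shared regions were listed in 79.4% and 85.4% of cases in the 2 MCAO/R-0 h lists, in 80.8% and 82.8% at 6 h and in 75.2% and 79.8% at 24 h, whereas regions in 1 Sham list only were listed in 25.8% to 37.7%. The means were 80.6% ± 3.43 and 31.4% ± 4.17 (SD, n = 6 lists), a difference of 49.1 percentage points ± 1.13, higher in 6 of 6 lists, all set against the same 2 Sham lists. Restricted to regions of 100 to 200 nt, an alternative chosen after seeing the data, the difference was 30.3 points.

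Altogether 4783 shared regions (53.1%) were listed in all 6 MCAO/R lists, compared with 20.3% of all Sham regions, and 193 (2.14%) in none, compared with 31.3% of the regions in 1 Sham list only. Both lists of a time point held 72.9% of the shared regions at 0 h, 72.7% at 6 h and 67.1% at 24 h. The lists also differ in length, from 19072 to 24078 peaks, and neither library size nor time was tested as a source of these differences.

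**Figure D5:**
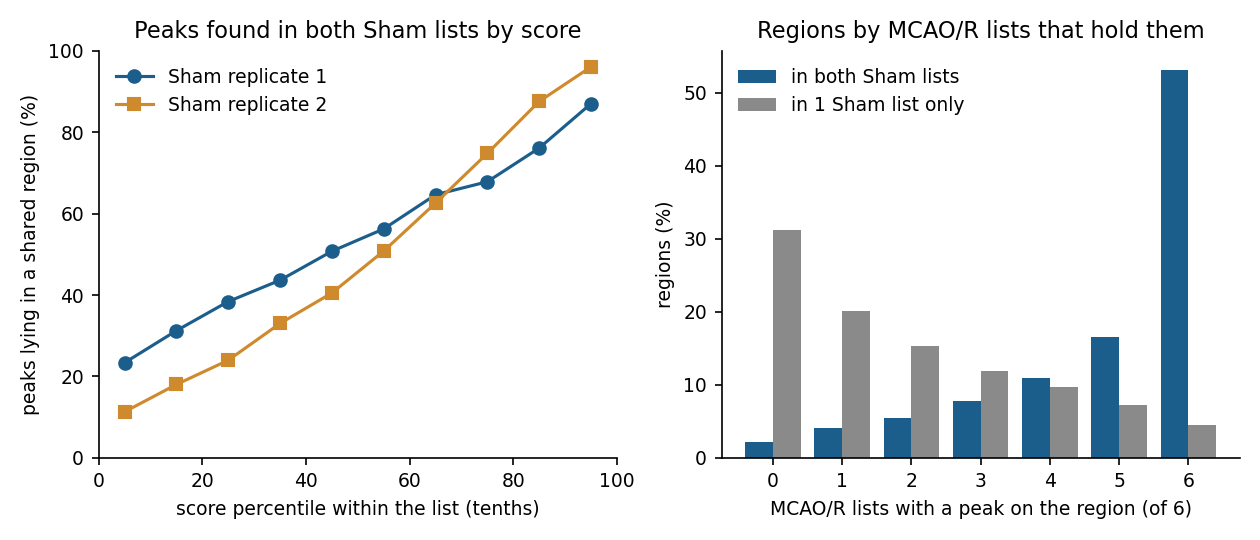
Left, percent of peaks lying in a region shared by both Sham lists (y axis) by score percentile within the list, in steps of 10 (x axis), for each Sham library, from 23.4% and 11.3% in the lowest step to 87.0% and 96.0% in the highest. Right, percent of regions (y axis) by the number of the 6 MCAO/R lists with a peak on them (x axis), with 53.1% of shared regions and 4.55% of regions in 1 Sham list only at 6.

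Among shared regions, those with a lower score percentile above the median of 60.7 were listed in 90.6% ± 2.35 of cases and the others in 70.5% ± 5.01 (SD, n = 6 lists), higher in 6 of 6 lists, which restates in further lists the rise of agreement with score and is given with no test. The difference of 20.2 points was 12.8 among regions of 200 to 300 nt and 38.7 when the higher-scoring 50% of each MCAO/R list was used. Shared regions with GGACT were listed in 87.2% ± 2.87 and those without in 77.0% ± 3.75, a difference of 10.2 points ± 1.06 (higher in 6 of 6 lists, two-sided exact sign-flip permutation over the lists, p = 0.03125, adjusted over the 3 comparisons computed 0.03125, the smallest p that 6 lists allow). The 6 lists share the same regions, so this p covers the spread between MCAO/R lists and not that between Sham lists. Longer regions hold GGACT more often, and among regions of 200 to 300 nt, a restriction also chosen after seeing the data, the difference was 2.32 points.

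By place, shared regions around the stop codon were listed in 79.8% to 89.5% of cases across the 6 lists, those in long internal coding exons in 77.9% to 87.1% and those in short internal coding exons in 51.1% to 62.7%, with no overlap between the last and the other 2. Over all shared regions the range was 75.2% to 85.4%. The share listed in all 6 MCAO/R lists was 60.3%, 55.0% and 21.3% in the same order, against 53.1% of all shared regions. Regions in short internal exons were also shorter (median 175 nt against 275 nt) and lower in score (median lower percentile 56.7, against 62.5 around the stop codon and 66.4 in long internal exons), and their part in the difference was not tested. The 5' UTR lay between, with 66.2% to 79.3%.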

How the data were processed

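MeRIP-seq peak lists of 8 IP libraries were analysed, and the input libraries were not analysed here. Per the study's methods, the authors trimmed reads with Trim Galore, mapped them to GRCm39 with HISAT2, filtered with SAMtools and called peaks with exomePeak2 (p-value cutoff 0.05, log2 fold change cutoff 0.5). The fragment length is about 100 nt in the methods and about 200 nt in the labels. The score of each deposited peak has a scale not given in the sources used here. Whether replicates were pooled for peak calling is not stated, and 1 list was deposited for each library. The deposited Sham lists, with 18775 and 20152 peaks, are much longer than the count of confident peaks per sample that the paper gives. How the 2 sets of peaks relate is not stated. No replicate is stated to be a separate animal, so the spread may be technical.

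Exonic parts of peaks were rebuilt on GENCODE M39 (Python 3.11.15, numpy 2.4.6, scipy 1.17.1, pysam 0.24.0), preferring the gene with exon at both peak ends and an exonic length in steps of 25 nt. Of peaks crossing introns, 95.1% and 93.6% in the Sham lists gave such a length, against 3.58% and 4.07% of their whole spans. Regions were joined by 1 shared exonic base. Named genes were the 10 coding genes with most regions and the 10 densest (at least 3 regions and 1 kb of exon), the 10 highest-scoring and 5 longest regions, 5 long non-coding RNA genes, every m6A machinery gene and 4 leading genes of the other lists. Kcnd3, Ythdf1 and Homer1 were described further after their values were seen, and some genes and 1 sequence that the rule names are not reported here. The members and lists were chosen with earlier results of these data known. Alternatives changed the joining, the transcript, the windows, the motif and the lists used.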

Additional observations from a re-analysis of the deposited data

How the results depend on the processing

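No test compares the Sham lists, and 2 lists give no interval. The number of shared regions stayed within 1.5 times of 9002 under the alternatives on joining, except with the higher-scoring 50% of each list (5563), and regions of 1 list alone number 18774 and 20148. Near the stop codon the share was 20.5% and 20.6% for 1 list alone, 24.6% with the higher-scoring 50%, 23.7% with at least 50% of the shorter peak shared, with equal peak numbers and with assignment by most exonic bases only (chosen after seeing the data), 24.0% on Ensembl canonical transcripts, 12.4% within 100 nt (4.31% under even placement) and 38.6% within 400 nt (16.8%). The share in long internal exons was 18.6% and 19.1% for 1 list alone, 22.6% with the higher-scoring 50%, 20.4% on canonical transcripts and 14.9% for exons of at least 800 nt (7.74%). GGACT density was 1.51 and 1.54 per kb for 1 list alone, 1.52 with the higher-scoring 50% and 1.61 in bases covered in both lists, and RRACH density was 19.0. Both positional shares were above even placement in each of these settings.

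Leaving out 1 MCAO/R list at a time, the difference between shared regions and regions of 1 list only was 48.8 to 49.4 percentage points, that between higher- and lower-scoring regions 19.1 to 20.9, and that between regions with and without GGACT 9.85 to 10.4. With 5 lists the smallest p of the exact sign-flip permutation is 0.0625, so these say nothing on the threshold. The other settings kept the direction of all 3 differences, and for GGACT also p = 0.03125 (exact sign-flip permutation), but length moved the GGACT difference to 2.32 points. No paired analysis was possible because no test compares groups that share replicate numbers: the differences are taken within each list, and the values by time point are given without a test.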
